A study of Homo sapiens with 4 samples.

Results

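The genes described here are SRF, which encodes serum response factor, and 9 genes that are known as its contractile and actin-linked targets: ACTA2, ACTG2, TPM1, TPM2, MYL9, CNN1, CNN2, TAGLN and VCL. They were taken by symbol and make up 10 of the 37450 genes in the deposited count table. Messenger RNA was measured on day 2 after siRNA transfection in 143B, a human osteosarcoma cell line, in 2 libraries that received siRNA against CBX3 (siCBX3, labelled as CBX3 knockdown) and 2 that received a non-targeting siRNA (siNC, labelled as WT). All 4 libraries came from cells carried through the same lipid transfection. CBX3 is the gene of HP1γ, which reads histone methylation on chromatin. The sources used here give neither the number of siRNAs nor whether replicates came from separate cultures. The p-values therefore rest on the spread of these libraries alone, which may be technical and is pooled in large part over genes.

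Serum response factor binds a short DNA motif, the CArG box, and works with cofactors of 2 kinds. The myocardin-related factors MRTF-A and MRTF-B are held by monomeric actin and released when actin polymerises, and they drive genes of the contractile apparatus. The ternary complex factors of the ELK family answer to MAP kinase signalling and drive immediate early genes. The contractile targets are best known as markers of smooth muscle and of activated fibroblasts, and mesenchymal tumour cells express part of the set.

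The sequences shown first are the promoter windows in which the SRF motif was found, since serum response factor binds it. RefSeq promoter windows (GRCh38.p14, from 250 bases before to 50 bases after an annotated start) were found for 8 of the 10 genes, in 11 windows. The 10-base CArG consensus, whose central bases may each be A or T and which reads the same on both strands, was present in 3 of the 8 genes, SRF, ACTG2 and CNN2. ACTA2 held only boxes with 1 mismatch. No other motif was searched. The windows below are SRF at chr6:43171019-43171318 (plus strand), ACTG2 at chr2:73892758-73893057 (plus strand), CNN2 at chr19:1026358-1026657 (plus strand) and ACTA2 at chr10:88952724-88953023 (minus strand), 5′ to 3′ in the gene's direction. Capitals mark CArG boxes and boxes with 1 mismatch.
SRF: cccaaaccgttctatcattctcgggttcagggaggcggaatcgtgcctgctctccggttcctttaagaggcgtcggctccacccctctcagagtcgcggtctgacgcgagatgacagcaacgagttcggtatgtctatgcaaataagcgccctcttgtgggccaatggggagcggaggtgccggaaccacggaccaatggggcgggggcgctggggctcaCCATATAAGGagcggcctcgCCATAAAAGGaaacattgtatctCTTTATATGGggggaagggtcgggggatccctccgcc
ACTG2: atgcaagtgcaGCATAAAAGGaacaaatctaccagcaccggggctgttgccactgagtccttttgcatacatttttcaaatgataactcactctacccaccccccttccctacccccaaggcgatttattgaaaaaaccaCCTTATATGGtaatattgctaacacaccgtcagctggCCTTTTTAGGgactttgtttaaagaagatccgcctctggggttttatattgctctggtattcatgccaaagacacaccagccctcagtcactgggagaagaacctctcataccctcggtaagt
CNN2: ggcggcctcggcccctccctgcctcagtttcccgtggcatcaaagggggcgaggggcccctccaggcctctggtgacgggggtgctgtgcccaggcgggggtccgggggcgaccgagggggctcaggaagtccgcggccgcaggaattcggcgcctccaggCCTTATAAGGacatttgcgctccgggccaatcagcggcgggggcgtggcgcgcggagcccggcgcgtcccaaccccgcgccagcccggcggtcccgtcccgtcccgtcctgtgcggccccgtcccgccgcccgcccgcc
ACTA2: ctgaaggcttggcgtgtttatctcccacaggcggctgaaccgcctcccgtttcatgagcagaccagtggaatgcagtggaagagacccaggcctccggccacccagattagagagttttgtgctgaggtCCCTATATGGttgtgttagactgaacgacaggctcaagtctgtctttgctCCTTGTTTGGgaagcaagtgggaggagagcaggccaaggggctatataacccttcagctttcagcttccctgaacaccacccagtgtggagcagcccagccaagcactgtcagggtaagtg

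In SRF, 2 boxes began 30 and 10 bases before the start, and a box with 1 mismatch began 13 bases after it. In ACTG2, which encodes the enteric smooth muscle actin, 2 boxes began 110 and 73 bases before the start, and a box with 1 mismatch began 239 bases before it. The CNN2 box began 89 bases before the start. The ACTA2 boxes, both with 1 mismatch, began 121 and 71 bases before the start. The windows of TPM1, TPM2, VCL and CNN1 and the second windows of SRF and ACTA2 had none of these letters, which says nothing of sites elsewhere. A CArG box was held by 3 of the 11 windows here, against 1.29% of all 35116 promoter windows of the same length, and one with at most 1 mismatch by 4 of the 11, against 18.9%. Counted by gene, the numbers were 3 and 4 of the 8 genes here, against 1.6% and 22.3% of 27305 genes. Since the genes were taken as SRF and its known targets, the choice itself bears on these shares, and no test was made.

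**Figure D1:**
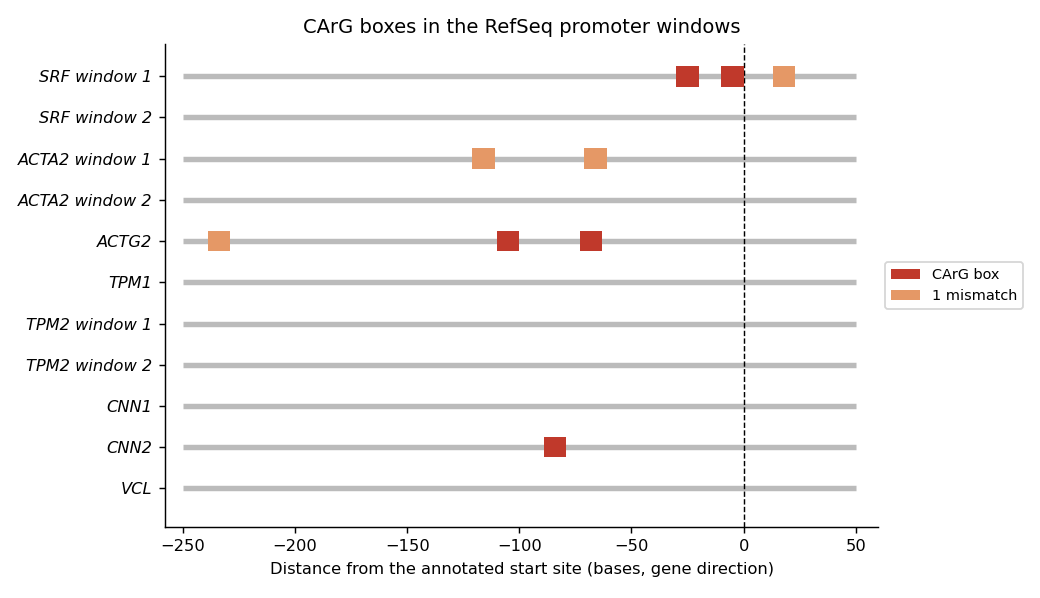
Position of CArG boxes (red) and of boxes with 1 mismatch (orange) in the 11 RefSeq promoter windows of 8 genes, by distance in bases from the annotated start site (dashed line). Boxes lie in the windows of SRF, ACTA2, ACTG2 and CNN2, and the 2 SRF boxes without a mismatch begin 30 and 10 bases before the start.

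The libraries held 36509298 and 38717507 counts with siCBX3, against 37318382 and 40336907 with siNC. The Pearson correlation of log2 CPM over genes was 0.991 between libraries of one group and 0.957 to 0.961 between libraries of different groups. CBX3 itself had 2020 and 2163 counts in siCBX3 libraries, against 20311 and 21384 in siNC libraries (log2 fold change -3.19, SE 0.08, adjusted p 2.73e-20, edgeR quasi-likelihood test). HNRNPA2B1, whose exons cover 368 of the 4641 exon bases of CBX3 from the other strand, fell by 0.44 on the log2 scale (adjusted p 3.03e-05, edgeR). Of the 10 osteoblast lineage markers examined 7 were tested. At an adjusted p under 0.05 (edgeR) 4 rose and none fell, 57.1%, beside 48.4% of all genes tested. Those that rose were SPP1 (log2 fold change 2.82), SPARC (2.43), COL1A1 (0.44) and RUNX2 (0.39). COL1A2 (0.24), BGLAP (0.55) and DLX5 (-0.05) did not pass. RUNX2 had 198 and 228 counts with siCBX3 and 167 and 187 with siNC. SP7, ALPL and IBSP had at most 4 counts in any library. The summed level of the 10 markers was 1897 and 1796 CPM in siCBX3 libraries and 400.0 and 327 CPM in siNC libraries, most of it SPARC. The summed level of 12 smooth muscle markers was 201 and 189 CPM with siCBX3, against 244 and 257 CPM with siNC, most of it SMTN, and that of 5 endothelial markers stayed under 3 CPM throughout.

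The comparison asked how transcript levels differ once CBX3 is depleted. All 10 genes passed the filter on low counts. Levels are given as TMM-scaled CPM, the count relative to library size, which compare a gene between libraries, or as the deposited RPKM, which also divide by exon length and compare genes with one another. A gene is called changed at a Benjamini-Hochberg adjusted p under 0.05 over all 20999 genes tested. Of the 10 genes, 3 rose with siCBX3 (TPM1, TPM2 and MYL9), 2 fell (VCL and ACTA2) and 5 were not called. Among all genes tested 48.4% were called, 24.4% higher and 24% lower, so that 5 of 10 is close to the background. The median log2 fold change of the 10 was 0.12, beside -0.0058 over all genes tested. In 6 of the 10 the libraries of the groups did not overlap, beside 73.9% of all genes tested. In these bulk libraries a change in the share of cells that express a gene and a change in RNA per cell cannot be told apart.

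**Figure D2:**
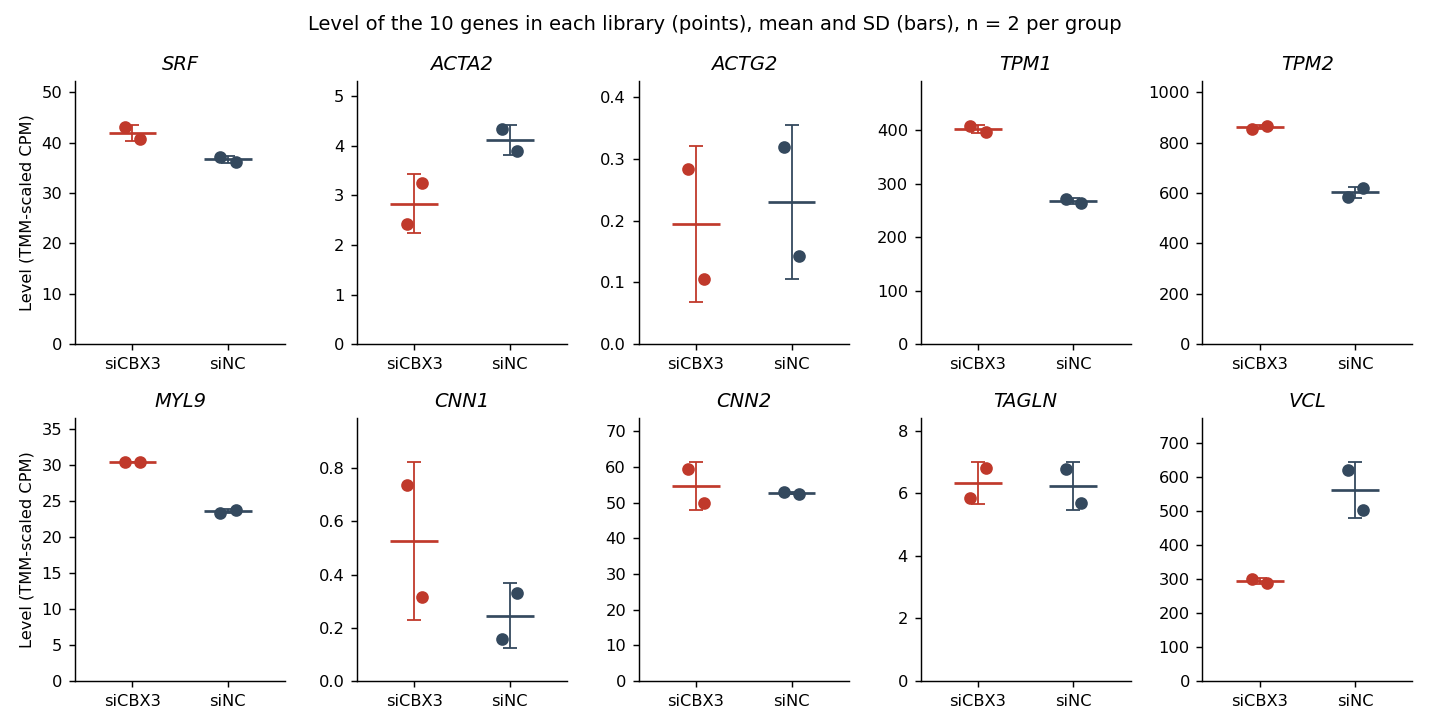
Level of each gene in TMM-scaled CPM (vertical axes from 0) in the 2 siCBX3 libraries (red) and the 2 siNC libraries (dark), with the mean and SD. TPM1, TPM2 and MYL9 lie higher with siCBX3 and VCL and ACTA2 lower, without overlap, while the libraries of ACTG2, CNN1, CNN2 and TAGLN overlap.

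SRF, the transcription factor (chr6:43171299-43181507, plus strand; here and below the gene's span on GRCh38), was not called. Its level was 43.1 and 40.8 CPM in siCBX3 libraries, against 37.2 and 36.2 CPM in siNC libraries. Both siCBX3 libraries lay above both siNC libraries, with a log2 fold change of 0.19 (SE 0.08, 95% interval 0.02 to 0.36, adjusted p 0.0641, edgeR). The unadjusted p was 0.0324, and the gene stayed uncalled in all 14 alternative analyses (log2 fold change 0.10 to 0.23).

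The 2 smooth muscle actins were low in these cells. ACTA2 (chr10:88935074-88991339, minus strand) encodes the aortic smooth muscle actin used as a marker of myofibroblasts. It had 2.41 and 3.25 CPM with siCBX3 and 4.33 and 3.89 CPM with siNC, on 85 and 123 counts against 163 and 164. Both siCBX3 libraries were below both siNC libraries, and the gene fell by 0.53 on the log2 scale (SE 0.20, adjusted p 0.0283, edgeR). This call ended without siCBX3 replicate 1 (log2 fold change -0.34, adjusted p 0.254, edgeR), without siNC replicate 1 (-0.46, adjusted p 0.108, edgeR), with DESeq2 (adjusted p 0.111) and with limma on RPKM plus 0.1 (adjusted p 0.0576). On RPKM plus 1 it held at -0.33. ACTA2 shares 380 of its 2976 exon bases with FAS and 516 with ACTA2-AS1, both on the opposite strand. FAS, which encodes a death receptor, had 87 and 92 counts with siCBX3 and 272 and 239 with siNC, and it fell by 1.39 on the log2 scale (SE 0.18, adjusted p 7.33e-07, edgeR; -0.75 on RPKM plus 1). ACTA2-AS1 had 34 and 47 counts with siCBX3 and 46 and 85 with siNC, and was not called (log2 fold change -0.56, adjusted p 0.141, edgeR), except without siNC replicate 1 (-0.87, adjusted p 0.0330, edgeR). Whether counting used strand is not stated, and the part of these neighbours in the ACTA2 count was not tested.

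ACTG2 (chr2:73892314-73919865, plus strand) had 10 and 4 counts in siCBX3 libraries, against 12 and 6 in siNC libraries, and the groups overlapped. Its log2 fold change was -0.24 with a 95% interval from -1.69 to 1.22 (adjusted p 0.808, edgeR), so that a change within these limits was not detectable at this depth.

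TPM1 and TPM2 encode tropomyosins, which lie along actin filaments and set their access to myosin and other proteins, and both rose. TPM1 (chr15:63042632-63071915, plus strand) had 408 and 397 CPM with siCBX3, against 271 and 263 CPM with siNC. It rose by 0.59 on the log2 scale (SE 0.07, adjusted p 2.46e-07, edgeR), 1.51-fold. TPM2 (chr9:35681992-35691020, minus strand) had 855 and 867 CPM with siCBX3, against 586 and 619 CPM with siNC. It rose by 0.52 on the log2 scale (SE 0.07, adjusted p 2.34e-06, edgeR), 1.43-fold, with a spread between libraries of a group far smaller than the difference. TPM1 kept its call over the 14 alternatives (log2 fold change 0.49 to 0.61), as did TPM2 (0.43 to 0.56). Of the 12492 exon bases of TPM1, 2143 lie under RP11-244F12.3 on the opposite strand, whose counts were 536 and 513 with siCBX3 and 384 and 444 with siNC. It rose by 0.47 on the log2 scale (adjusted p 0.00162, edgeR), the direction of TPM1, and its part in the TPM1 count was not tested. RP11-244F12.2 lies wholly within TPM1 exons, with 65 and 57 counts with siCBX3 and 32 and 55 with siNC. TPM1 itself had 14374 and 15061 counts with siCBX3 and 10204 and 11097 with siNC. The part of RP11-244F12.2 in these counts was not tested either.

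MYL9 (chr20:36541484-36551447, plus strand), the regulatory light chain of smooth muscle and nonmuscle myosin, rose as well. Its level was 30.5 CPM in both siCBX3 libraries, against 23.4 and 23.8 CPM in siNC libraries. MYL9 was higher by 0.37 on the log2 scale (SE 0.09, adjusted p 0.00135, edgeR), 1.29-fold, which lay between 0.26 and 0.39 over the alternatives, in each of which it was called.

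The calponins and transgelin, which share a calponin homology domain and bind actin filaments, were not called. CNN1 (chr19:11538717-11550323, plus strand), the basic calponin of differentiated smooth muscle, had 26 and 12 counts with siCBX3 and 6 and 14 with siNC. The groups overlapped, and the log2 fold change of 1.06 had a 95% interval from -0.13 to 2.25 (adjusted p 0.134, edgeR). Without siCBX3 replicate 1 it was 0.34, and without siNC replicate 2 it was 1.70, the lowest and highest with 1 library left out. CNN2 (chr19:1026581-1039068, plus strand), a more broadly expressed calponin, had 59.5 and 49.97 CPM with siCBX3 and 52.9 and 52.5 CPM with siNC. TAGLN (chr11:117199321-117204782, plus strand), which encodes the smooth muscle protein SM22α, had 5.84 and 6.81 CPM with siCBX3 and 6.77 and 5.67 CPM with siNC. For both genes the libraries of the groups overlapped. The 95% intervals of the log2 fold change were -0.13 to 0.23 for CNN2 and -0.29 to 0.34 for TAGLN, which leaves out a doubling or a halving of either gene. The whole 338-base gene AC011558.5 lies within CNN2 exons on the opposite strand, with 87 and 62 counts with siCBX3 and 57 and 83 with siNC. TAGLN shares 446 of its 3917 exon bases with PCSK7, which had 2024 and 2390 counts with siCBX3 and 2194 and 2281 with siNC. Over its whole length PCSK7 had many times the counts of TAGLN, 206 and 258 with siCBX3 and 255 and 239 with siNC. The shared bases are 11.4% of the exon bases of TAGLN and 2.00% of the 22303 exon bases of PCSK7. The part of PCSK7 in the TAGLN count was not tested.

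VCL (chr10:73995193-74121363, plus strand) encodes vinculin, the protein that ties actin filaments to integrin and cadherin adhesions, and had the largest called change of the 10. Its level was 299.9 and 287 CPM in siCBX3 libraries, against 620 and 503 CPM in siNC libraries. Both siCBX3 libraries lay far below both siNC libraries, which differed more from one another than the siCBX3 pair did. VCL fell by 0.94 on the log2 scale (SE 0.08, adjusted p 2.00e-09, edgeR), and was 1.91-fold lower. Over the alternatives the log2 fold change lay between -1.08 and -0.78, called in each. VCL shares 1109 of its 9992 exon bases with AP3M1 on the opposite strand, whose counts were 829 and 1013 with siCBX3 and 937 and 1061 with siNC (log2 fold change 0.0061). VCL had 10572 and 10869 counts with siCBX3, against 23359 and 21185 with siNC.

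**Figure D3:**
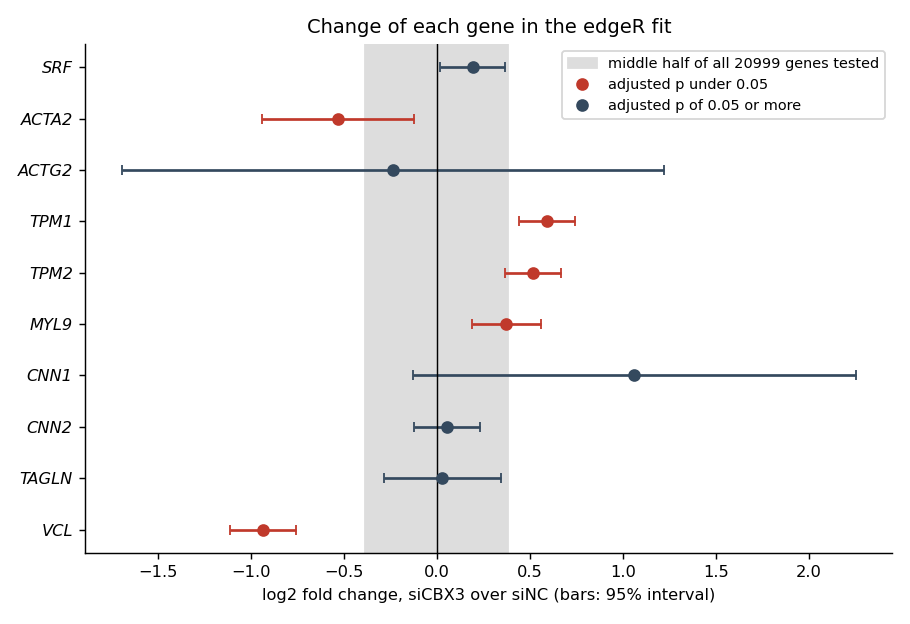
Log2 fold change of each gene, siCBX3 over siNC, from the edgeR fit, with its 95% interval. The grey band spans the quartiles of all genes tested (-0.39 to 0.38), VCL at -0.94 lies farthest from it among called genes, and the wide intervals of CNN1 and ACTG2 belong to genes with at most 26 counts in a library.

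Per exon length, the 10 genes spanned a wide range of levels. In siCBX3 libraries the order by mean RPKM was TPM2 (207 ± 4.14, SD, n = 2), TPM1 (31.3 ± 0.267), VCL (28.5 ± 0.626), CNN2 (14.6 ± 1.66), MYL9 (10.5 ± 0.103), SRF (9.70 ± 0.277), TAGLN (1.57 ± 0.184), ACTA2 (0.925 ± 0.202), CNN1 (0.177 ± 0.0985) and ACTG2 (0.0495 ± 0.0317). In siNC libraries TPM2 again led at 153 ± 9.56 RPKM, followed by VCL at 57.6 ± 7.13, TPM1 at 22.0 ± 0.0949, CNN2 at 14.9 ± 0.272, SRF at 8.97 ± 0.0484 and MYL9 at 8.58 ± 0.303. TAGLN (1.63 ± 0.164), ACTA2 (1.42 ± 0.0718), CNN1 (0.0880 ± 0.0456) and ACTG2 (0.0617 ± 0.0321) followed. The places of VCL and TPM1, and of SRF and MYL9, were thus exchanged between the groups. In siNC libraries CNN1 and ACTG2 overlapped, and no other neighbours in either order did. TPM2 stood above 99.1% of tested genes with siCBX3 and above 98.8% with siNC by mean RPKM, whereas ACTA2 stood above 30.3% and 37.8%. Exon length is the union of all annotated exons, so transcript isoforms, such as the muscle and nonmuscle forms of TPM1 and TPM2, are not separated.

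Set beside their relatives by RPKM, ACTA2, ACTG2, TPM1, MYL9, TAGLN and CNN1 were small parts of their families, whereas TPM2 and CNN2 were not. ACTA2 made up 0.119% and 0.164% of the summed RPKM of ACTA2, ACTG2, ACTB and ACTG1 in siCBX3 libraries, against 0.229% and 0.194% in siNC libraries. The cytoplasmic actins ACTB and ACTG1 made up nearly all the rest, and neither was called (log2 fold changes -0.07 and 0.13). MYL9 took 4.76% and 4.87% of the regulatory light chains with siCBX3, against 3.90% and 4.04% with siNC, beside MYL12A and MYL12B, neither of which was called. TAGLN took 3.18% and 3.69% of the transgelins with siCBX3, against 5.61% and 4.70% with siNC. The share of TAGLN was lower while its own CPM overlapped between the groups, and its relative TAGLN2 rose by 0.65 on the log2 scale (SE 0.08, adjusted p 1.04e-07, edgeR).

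The 4 tropomyosins summed to 793 and 806 RPKM with siCBX3 against 564 and 604 RPKM with siNC. TPM2 held 25.7% and 26.0% of it with siCBX3 and 25.9% and 26.4% with siNC, and TPM1 3.98% and 3.86% against 3.88% and 3.65%. Both shares thus stayed close while both genes rose. TPM4, a tropomyosin of nonmuscle cells, took 24.5% and 24.3% with siCBX3 and 8.17% and 8.46% with siNC, and it rose by 2.09 on the log2 scale (SE 0.08, adjusted p 6.09e-17, edgeR). TPM3 took 45.8% in both siCBX3 libraries and 62.0% and 61.5% in siNC libraries, with a log2 fold change of 0.10 (adjusted p 0.266, edgeR). Among calponins CNN2 held 52.4% and 51.2% with siCBX3, against 47.3% and 48.3% with siNC, CNN3 nearly all the rest, and CNN1 under 1% in each library.

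**Figure D4:**
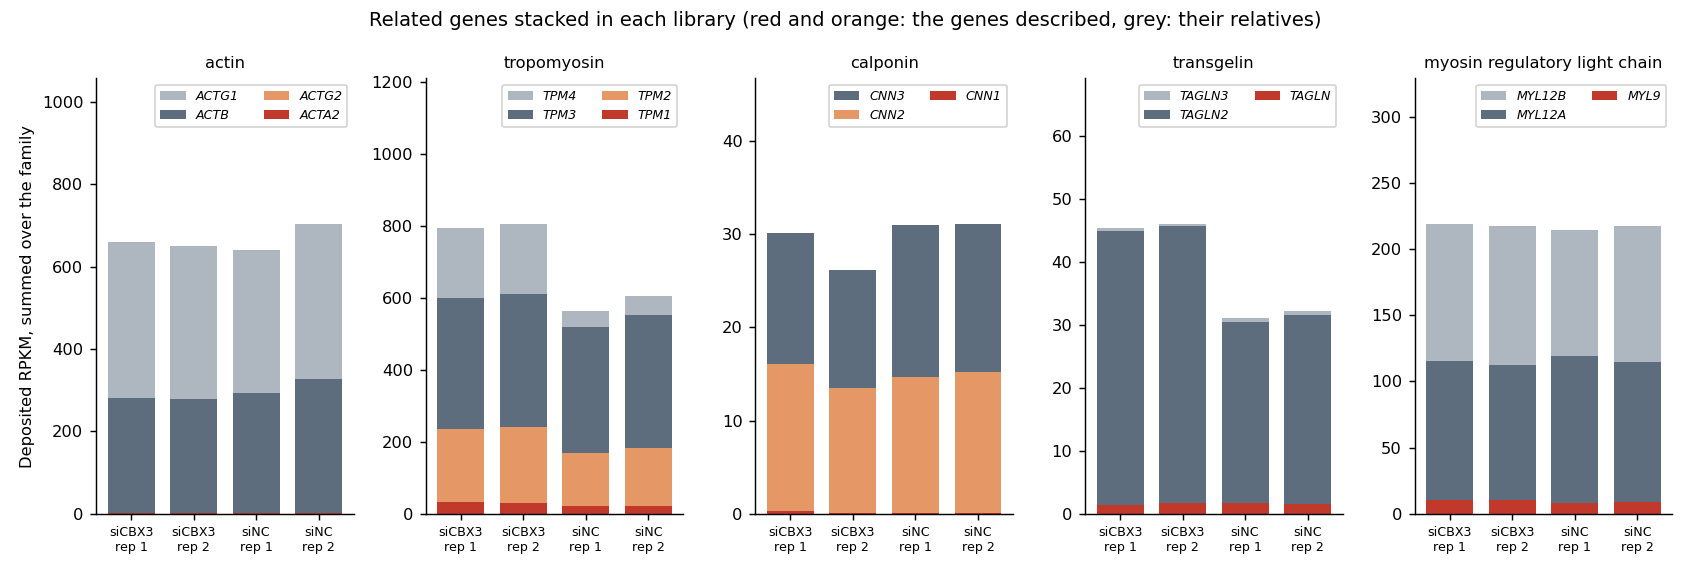
Deposited RPKM of related genes, stacked per library (vertical axes from 0), with the genes described here in red and orange and their relatives in grey. ACTA2 and ACTG2 are too low to see beside ACTB and ACTG1, and TPM4 accounts for 194 and 196 RPKM with siCBX3 against 46.1 and 51.1 RPKM with siNC.

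The genes that carry signals to SRF were read from lists chosen by function. Of 9 listed SRF cofactors and regulators 7 were tested, of which 3 rose and 1 fell, with a median log2 fold change of 0.11. The share called was 57.1%, beside 48.4% of all genes tested, and 1 rose on RPKM plus 1. The same 48.4% is the background for the shares called in the lists below. ELK1, a ternary complex factor, had 13.8 and 13.9 CPM with siCBX3, against 8.81 and 8.69 CPM with siNC, and rose by 0.67 on the log2 scale (SE 0.12, adjusted p 4.46e-05, edgeR). MKL1, the gene of MRTF-A, had 20.3 and 17.97 CPM with siCBX3, against 13.3 and 14.0 CPM with siNC, and rose by 0.49 (SE 0.11, adjusted p 0.000510, edgeR). In both genes every siCBX3 library lay above every siNC library, though the MKL1 call ended with limma on RPKM plus 1 (adjusted p 0.0536).

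MKL2, the gene of MRTF-B, rose by 0.25 on the log2 scale (adjusted p 0.0279, edgeR), a call that ended in 8 of the 14 alternatives. They include those without siCBX3 replicate 1 (0.26, adjusted p 0.106, edgeR), siCBX3 replicate 2 (0.24, adjusted p 0.129, edgeR) or siNC replicate 2 (0.22, adjusted p 0.102, edgeR). FHL2, a LIM protein that binds SRF and is itself a target of it, fell by 0.56 (SE 0.10, adjusted p 3.35e-05, edgeR). ELK3 (0.11), ELK4 (0.05) and SCAI (-0.38), a repressor of the MRTFs, were not called, except that SCAI fell without siNC replicate 1 (-0.51, adjusted p 0.0387, edgeR) and with library totals (-0.46, adjusted p 0.0476, edgeR). MYOCD, the muscle-restricted myocardin, had 0 and 2 counts in the siCBX3 libraries and 0 and 2 in the siNC libraries and was not tested.

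Upstream, of 24 genes that set the balance of monomeric and filamentous actin or signal to it, 12 rose and 3 fell (62.5% called). Their median log2 fold change was 0.22, and 0.119 on RPKM plus 1, where that of all genes tested was -0.0406. Without siCBX3 replicate 2 only 1 of them fell, and on RPKM plus 1 or plus 0.1 only 5 rose. LIMK1, the kinase that inactivates cofilin, had 118 and 108 CPM with siCBX3, against 28.8 and 31.9 CPM with siNC, and rose by 1.89 on the log2 scale (SE 0.08, adjusted p 3.70e-15, edgeR). MICAL2, an actin-oxidising enzyme, rose by 0.92 (adjusted p 5.21e-10, edgeR). RHOB, a small GTPase, rose by 0.77 (adjusted p 1.27e-05, edgeR), and TMSB10, which binds monomeric actin, by 0.44 (adjusted p 2.11e-05, edgeR; 0.36 with adjusted p 0.111 on RPKM plus 1 and 0.120 on RPKM plus 0.1).

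Of 25 other actin and myosin genes tested, 11 rose and 6 fell (median 0.13, 68% called; 3 fell without siCBX3 replicate 2). Beside TPM4, PDLIM7, an actin-binding LIM protein, rose by 0.78 (adjusted p 3.82e-09, edgeR). MYH9, the heavy chain of nonmuscle myosin IIA, had 4373 and 4237 CPM with siCBX3 and 2688 and 2761 CPM with siNC, and rose by 0.66 (adjusted p 7.00e-08, edgeR). MYLK, the kinase that phosphorylates MYL9, went the other way, with 37.7 and 35.8 CPM with siCBX3 and 65.1 and 61.3 CPM with siNC, and fell by 0.78 (adjusted p 2.54e-08, edgeR).

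Of 17 focal adhesion partners of vinculin, 10 rose and 4 fell (median 0.25, or 0.165 on RPKM plus 1, 82.4% called). Against the fall of VCL, the tensin TNS3 rose by 1.43 on the log2 scale (adjusted p 6.79e-14, edgeR) and LPP, a relative of zyxin, by 1.23 (adjusted p 1.03e-11, edgeR; 0.71 on RPKM plus 1). TNS1, a second tensin, had 5.30 and 5.83 CPM with siCBX3, against 25.1 CPM in both siNC libraries, and fell by 2.17 (adjusted p 8.97e-14, edgeR; -0.98 on RPKM plus 1). Talin 2, TLN2, which binds vinculin, fell by 1.09 (adjusted p 3.20e-10, edgeR). TLN1, the other talin gene, rose by 0.50 (adjusted p 5.07e-06, edgeR). The mean level of TLN1 was 45.6 RPKM with siCBX3 and 34.1 RPKM with siNC, against 1.37 and 3.10 RPKM for TLN2. TNS3, LPP, TNS1 and TLN2 were named because they had the smallest adjusted p of the list (edgeR). The siCBX3 and siNC libraries did not overlap in 16 of the 17 partners and in 73.9% of all genes tested.

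Of 20 immediate early and growth-linked targets of SRF, 7 rose and 4 fell (55% called; 4 rose on RPKM plus 0.1). Their median log2 fold change was 0.06, and it turned negative with library totals, on RPKM plus 1 and on RPKM plus 0.1, within a range of -0.0204 to 0.116 over the alternatives. ANKRD1 had 4.68 and 6.04 CPM with siCBX3, against 83.2 and 72.9 CPM with siNC, and fell by 3.86 (adjusted p 1.24e-18, edgeR). CYR61, a matricellular protein gene, fell by 1.12 (adjusted p 6.08e-10, edgeR). ANKRD1 and CYR61 are also known as YAP targets. PHLDA1 rose by 1.14 (adjusted p 4.21e-12, edgeR), and DUSP1, a phosphatase of MAP kinases, by 1.43 (adjusted p 8.42e-10, edgeR), though its siCBX3 libraries differed at 199 and 132 CPM, against 67.8 and 55.4 CPM with siNC.

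**Figure D5:**
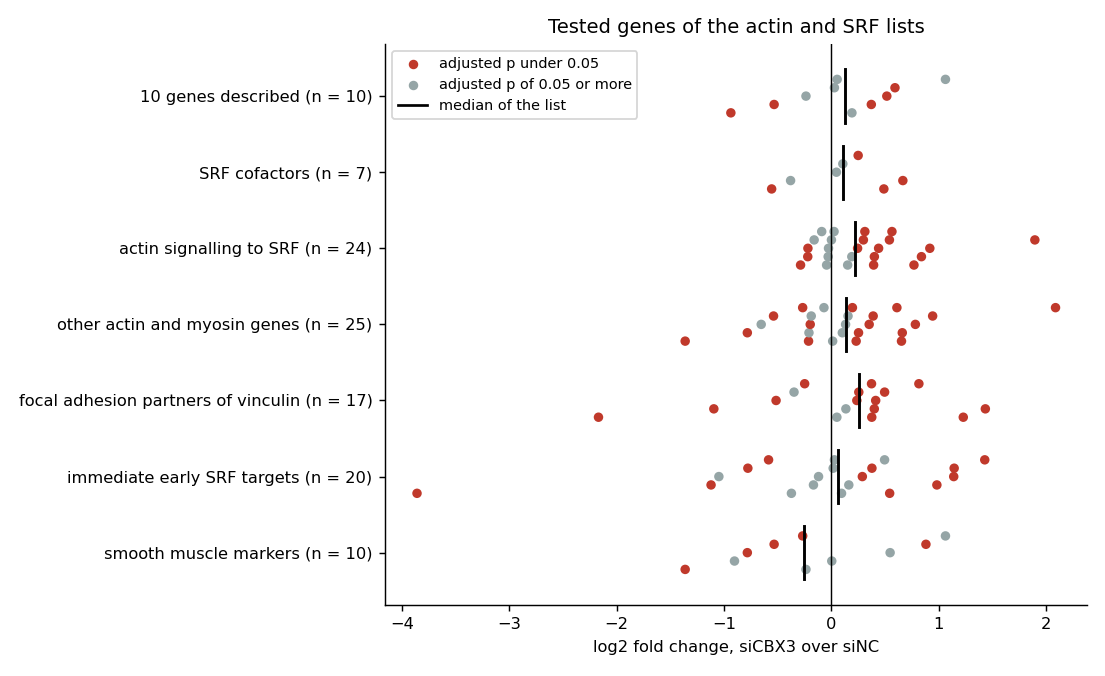
Log2 fold change, siCBX3 over siNC, of each tested gene in the lists of SRF and actin genes (red: adjusted p under 0.05), with the median of each list as a black line. The medians lie between -0.25 (smooth muscle markers) and 0.25 (focal adhesion partners of vinculin), and each list holds genes on both sides of 0.

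Of the 12 smooth muscle markers, a list that contains ACTA2, CNN1 and ACTG2, 10 were tested, of which 1 rose and 4 fell (median -0.25, 50% called). The share called was close to that of all genes tested, 48.4%, with 24.4% higher and 24% lower. ACTA2 and MYLK were 2 of those that fell. LMOD1, which nucleates actin filaments in smooth muscle, had 15 and 18 counts with siCBX3 and 42 and 51 with siNC, and fell by 1.36 (SE 0.39, adjusted p 0.00521, edgeR; -0.23 on RPKM plus 1). SMTN, the gene of smoothelin, fell by 0.27 (adjusted p 0.00599, edgeR; -0.20 with adjusted p 0.152 without siCBX3 replicate 2). LDB3 rose by 0.88 (adjusted p 0.00382, edgeR; adjusted p 0.0555 with limma on RPKM plus 1 and 0.0673 on RPKM plus 0.1). MYH11, the heavy chain of smooth muscle myosin, had 8.57 and 11.2 CPM with siCBX3 and 9.45 and 10.3 CPM with siNC, overlapping between the groups. DES (0.55) and SYNPO2 (-0.90) were not called, SYNPO2 except without siCBX3 replicate 1 (-1.30, adjusted p 0.0474, edgeR) and with library totals (-0.98, adjusted p 0.0494, edgeR). PLN had at most 2 counts in any library.

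Transcripts were compared in their own direction only, and there sequence shared with other genes bore mainly on CNN2. Of its 31-base stretches in annotated transcripts, 17.3% also occur in transcripts of another gene, against 4.54% for ACTA2, 3.88% for CNN1, 2.41% for TPM1, 1.89% for VCL, 1.28% for ACTG2, 0.942% for TPM2, 0.461% for MYL9 and 0 for SRF and TAGLN. TPM1 and TPM2 had 10 such stretches in common. Bases shared with a gene on the opposite strand, such as the 446 between TAGLN and PCSK7, are not counted in these shares. How reads that fit several genes were counted is not stated.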

How the data were processed

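Raw counts and RPKM values for each gene were deposited by the authors, 1 column per library. Recomputing RPKM from the deposited counts, exon lengths and totals gave relative differences of at most 3.79e-07. The submitters' processing notes name GRCh38, Subread 1.5.1, featureCounts, STAR 2.5.3a and Trimmomatic 0.36. The library kit is stranded per the labels' protocols, but the settings for strand, shared reads and molecular identifiers were not stated in the sources used here.

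The fit used edgeR 4.0.16 under R 4.3.3. Low genes were removed with filterByExpr (minimum count 10, minimum total 15), libraries were scaled by TMM, and the quasi-likelihood fit over the 4 libraries had the group as sole term. The fit had 2 residual and on average 22.0 prior degrees of freedom per gene. The spread used for a gene was thus borrowed in large part from all genes. Dividing each log2 fold change by the square root of its F gave the SE, and intervals use the same test. Alternatives used limma 3.58.1 and DESeq2 1.42.0. Replicates were not copies (chi-square per degree of freedom 6.99 in siCBX3 and 12.0 in siNC).

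All 10 members, CBX3, the 4 genes with the smallest adjusted p of 5 lists, all tested SRF cofactors and smooth muscle markers and genes sharing exon bases with a member are named. Relatives shown per family, TLN1, MYOCD, PLN and the osteoblast lineage markers were added after their values were seen. Members and lists were chosen with earlier results of these data known. Intervals cover only counting error and the spread among these libraries. Motifs and 31-base stretches were counted in Python 3.11.15 with RefSeq and GENCODE 29 sequences.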

Additional observations from a re-analysis of the deposited data

How the results depend on the processing

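The comparison was repeated under 14 alternatives. The number of genes called stayed within 1.5 times of 5132 higher and 5041 lower (3584 to 5371 and 3977 to 5917). The 3 genes that rose among the 10 were called in each alternative. The 2 that fell became 1 with DESeq2, with RPKM plus 0.1, and in the analyses that left out 1 library, which gave 1 to 2, since ACTA2 lost its call (log2 fold change -0.53 with DESeq2, -0.58 on RPKM plus 0.1). Leaving out 1 library, ACTA2 lay between -0.76 and -0.34. The single genes that changed sign were not called, and the cause was not tested. With library totals these were TAGLN (-0.0496), CNN2 (-0.0263), ELK4 (-0.0326), MYH11 (-0.0761) and AP3M1 (-0.0729). With upper-quartile scaling they were TAGLN (-0.0179), MYH11 (-0.0423) and AP3M1 (-0.0396), and with genes averaging 50 counts or more MYH11 (-0.00835) and AP3M1 (-0.00553). With limma-voom MYH11 had -0.00659. On RPKM plus 1 they were TAGLN (-0.0325), CNN2 (-0.0281), ELK4 (-0.0185), MYH11 (-0.0308) and AP3M1 (-0.0613), and on RPKM plus 0.1 TAGLN (-0.0501), CNN2 (-0.0300), ELK4 (-0.0302), MYH11 (-0.0745) and AP3M1 (-0.0745). Leaving out 1 library gave ranges of -0.0935 to 0.158 for TAGLN, -0.0796 to 0.177 for CNN2, -1.09 to 0.427 for ACTG2, -0.202 to 0.179 for MYH11, -0.0877 to 0.0928 for AP3M1 and -0.0970 to 0.499 for AC011558.5. CNN1 lay between 0.34 and 1.70 there. CNN1 and ACTG2 gave no value at the minimum mean of 50 counts, where they were not tested. Where 1 library is left out, the lone library of its group is assumed to vary like the other group.

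The replicate numbers were not shown to pair the libraries: across genes, the difference of replicate 1 and 2 in siCBX3 had a correlation of 0.0287 with that in siNC. With the replicate number as a block, 5371 genes were higher and 5259 lower, and 3 of the 10 genes were higher and 2 lower, as without it. MYH11 (-0.00378) changed sign there without being called. The median log2 fold change of actin signalling genes moved to 0.138 with library totals, 0.119 on RPKM plus 1 and 0.133 on RPKM plus 0.1. That of focal adhesion partners moved to 0.175, 0.165 and 0.175, and that of all genes tested to -0.0854, -0.0406 and -0.0764. Fold changes on RPKM plus 1 understate genes of low level. Depth limits CNN1 and ACTG2, which had 4 to 26 counts per library.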

Other observations

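Genes with a CArG box in a RefSeq promoter window were called about as often as all genes with such a window, a set that includes them. Leaving out the 10 genes described, 178 tested genes had such a box, of which 54 rose and 47 fell with siCBX3, 56.7% in all, beside 55.4% of the 11616 tested genes that had a promoter window. Their median log2 fold change was -0.0183, beside -0.0091. This set was formed after the data had been seen, and it carries no test.

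Markers of striated muscle were examined beside those of smooth muscle, and 3 of 9 passed the count filter. MYH3, the embryonic myosin heavy chain, had 51.5 and 55.7 CPM with siCBX3 and 80.5 and 89.4 CPM with siNC, and fell by 0.66 on the log2 scale (SE 0.08, adjusted p 3.14e-07, edgeR). TNNT1, the slow skeletal troponin T, had 223 and 208 CPM with siCBX3 and 154 and 156 CPM with siNC, and rose by 0.47 (SE 0.07, adjusted p 8.52e-06, edgeR). TTN, the gene of titin, rose by 0.49 (SE 0.13, adjusted p 0.00216, edgeR). The sarcomeric actins ACTA1 and ACTC1 had at most 8 counts in any library. Of 6 epithelial markers 5 were tested, of which 3 fell and none rose. The share called was 60%, beside 48.4% of all genes tested. KRT8 and KRT18 fell by 0.72 and 0.70 on the log2 scale (adjusted p 1.15e-08 and 1.81e-08, edgeR), and EPCAM by 0.51 (adjusted p 0.000712, edgeR). KRT19 (-0.10) and CLDN4 (0.07) were not called, with overlapping groups, and CDH1 had at most 8 counts in any library. Of the leukocyte markers CD68 rose by 0.60 (adjusted p 5.29e-07, edgeR), whereas PTPRC, CD3E and CD14 had at most 18 counts in any library. These genes were named after their values were seen.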
